A study of Mus musculus with 15 samples.

Results

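The 8 genes examined, Spp1, Gpnmb, Trem2, Fabp5, Cd63, Apoe, Cd9 and Mfge8, are often used to mark macrophages that gather in scar tissue. They were taken by symbol from a table of read counts for 33340 genes in whole mouse lung, each symbol matched 1 row, and all of them passed the filter on low counts that left 17457 genes for testing. The lungs came from male C57BL/6 mice, aged 10 to 12 weeks according to the methods of the study. Mice of days 7, 14 and 21 received a dose of 5 U/kg bleomycin into the trachea, and no dose was assigned to the day 0 controls. Bleomycin breaks DNA and leaves the lung scarred. The libraries numbered 4 each for day 0 (controls by title), day 7 and day 14, and 3 for day 21. Day 0 replicate 4 was a control by its title but carried a treatment label naming bleomycin. It was kept as a control, and leaving it out ended no call on these 8 genes against day 0. The labels did not say whether libraries came from separate mice, so p-values measured only the spread between these samples. Because whole lung was sequenced, a change in the number of cells of a type and a change in RNA per cell cannot be told apart.

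Macrophages that clear dead cells and matrix take up large amounts of lipid and membrane. They break this cargo down in lysosomes, pass cholesterol to apolipoprotein E and sense lipid and cell debris through the receptor TREM2. In scarred lung, liver and other organs, macrophages of this kind express Spp1, Gpnmb and Trem2 together with tetraspanins and lipid carriers. Several of the genes are not restricted to macrophages: epithelial cells, fibroblasts, endothelial cells or smooth muscle also express Cd9, Cd63, Mfge8, Fabp5 or Spp1.

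Between day 0 and day 14, 7 of the 8 genes rose and Cd9 did not pass the test. A gene passed where its edgeR quasi-likelihood test gave an adjusted p under 0.05 over all genes tested and a fold change over 1.5. Of all genes tested, 12.0% rose and 11.2% fell at that time, and these shares apply to each list count at day 14 below. Spp1, Trem2 and Gpnmb rose 35.5-fold, 20.5-fold and 14.5-fold, whereas Apoe rose 3.9-fold, Cd63 rose 2.91-fold, Mfge8 rose 1.77-fold and Fabp5 rose 1.65-fold. At day 7, 4 of the 8 had risen (Spp1, Trem2, Gpnmb and Cd63), against 8.78% of all genes (7.36% fell), and at day 21, 6 of the 8 were higher than at day 0, against 12.4% of all genes (10.1% fell). The median log2 fold change of the 8 genes was 0.88 at day 7, 1.75 at day 14 and 1.65 at day 21, beside 0.01, 0.02 and 0.02 over all genes tested. Every library lay above every day 0 library for 5 of the 8 genes at day 7, 6 at day 14 and 6 at day 21, where 17.6%, 16.8% and 19.4% of all genes did so.

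**Figure D1:**
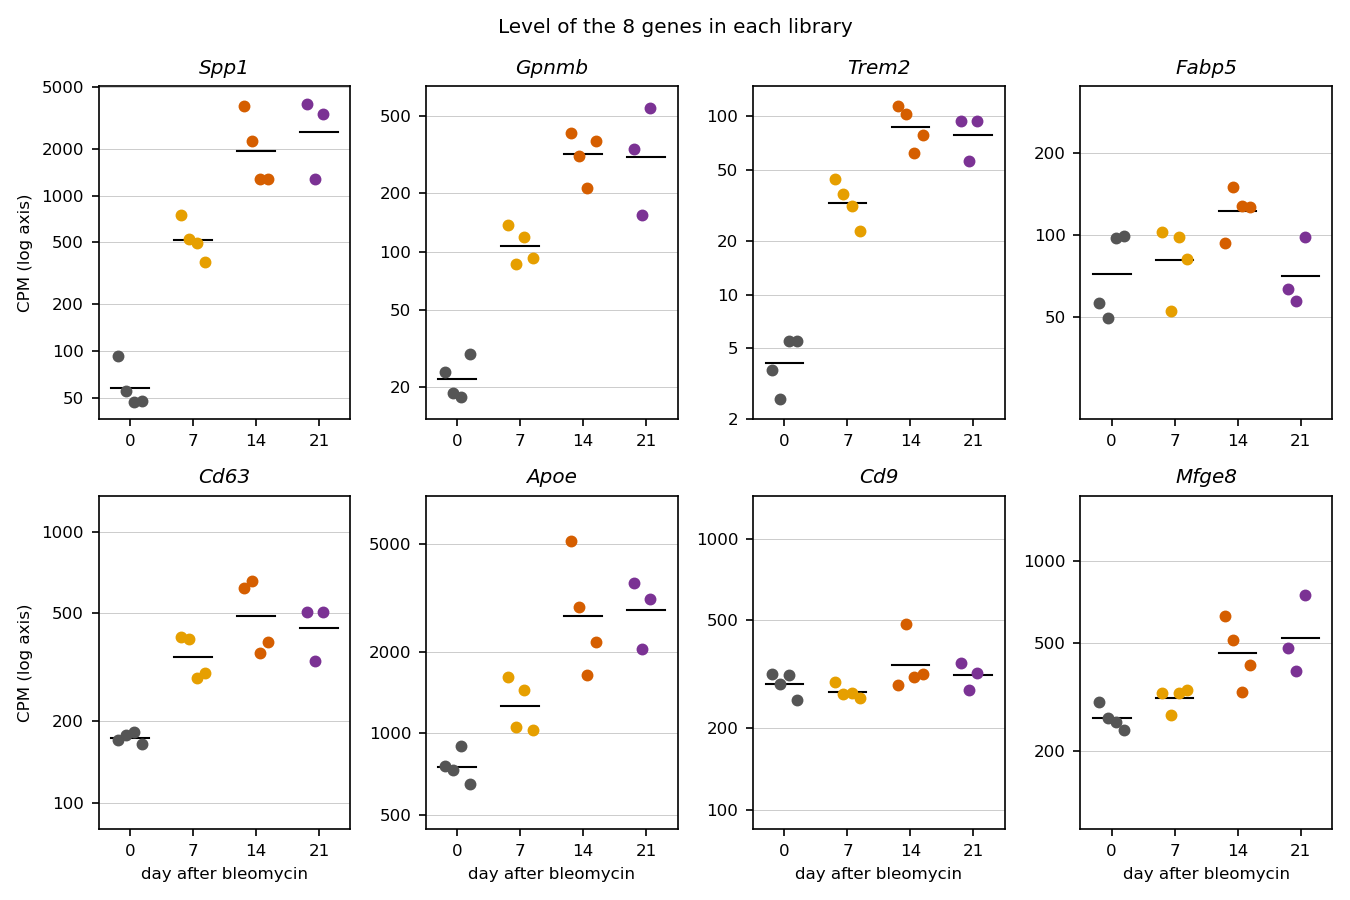
Each panel shows 1 gene. The vertical axis is reads per 1000000 counted (CPM) on a log scale with a span set for each panel, the horizontal axis is the day after bleomycin, each point is a library in order of replicate number, and the bar is the geometric mean. Spp1, Gpnmb and Trem2 climbed from day 0 to day 14 with no library of days 7, 14 or 21 as low as day 0, whereas Cd9 lay between 253 and 482 CPM on all days.

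The stretch before the start of transcription is shown for the 3 genes with the largest changes, so that their proximal promoters can be compared. The sequences are from RefSeq on GRCm38.p6 and cover the 250 bases before the annotated start on the plus strand, at chr5:104434861-104435110 for Spp1 (the first of its annotated starts), chr17:48346151-48346400 for Trem2 and chr6:49036268-49036517 for Gpnmb. Capitals mark matches on either strand to GAGGAAG, a core that the macrophage factor PU.1 binds, or to TGANTCA. In TGANTCA the N is any base, which is wider than the core of AP-1 sites, with C or G in that place.
Spp1: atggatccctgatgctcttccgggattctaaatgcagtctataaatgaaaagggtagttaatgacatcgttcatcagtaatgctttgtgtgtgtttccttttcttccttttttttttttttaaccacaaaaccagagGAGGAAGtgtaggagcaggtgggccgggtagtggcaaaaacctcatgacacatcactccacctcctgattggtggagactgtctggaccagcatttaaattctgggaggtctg
Trem2: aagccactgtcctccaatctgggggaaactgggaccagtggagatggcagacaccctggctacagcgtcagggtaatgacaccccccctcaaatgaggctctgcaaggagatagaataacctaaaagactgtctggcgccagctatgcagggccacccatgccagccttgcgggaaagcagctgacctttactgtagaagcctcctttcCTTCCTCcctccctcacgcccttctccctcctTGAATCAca
Gpnmb: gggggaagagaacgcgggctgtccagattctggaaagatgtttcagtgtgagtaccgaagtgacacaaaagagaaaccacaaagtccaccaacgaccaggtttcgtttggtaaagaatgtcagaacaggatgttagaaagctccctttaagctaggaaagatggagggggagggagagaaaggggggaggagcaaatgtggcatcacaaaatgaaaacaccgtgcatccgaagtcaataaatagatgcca
Spp1 held a match to GAGGAAG that began 113 bases before its start. Trem2 held a match to the same letters, on the opposite strand, beginning 41 bases before its start. It also held a match to TGANTCA, with the letters TGAATCA, beginning 9 bases before its start. These matches did not overlap. Gpnmb held neither. Of the 7 genes of the group with a promoter entry, Cd63 was the only other with GAGGAAG. Among 32851 promoters of this length, 10.6% held GAGGAAG and 6.75% held TGANTCA. The letters TCACGTG or TCATGTG, to which MITF and its relatives bind, were in none of these promoters and in 6.28% of all. Such matches are a description of these letters and not binding sites.

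Spp1 (ENSMUSG00000029304, chr5:104435118-104441050, plus strand, GRCm38) encodes osteopontin, a secreted, integrin-binding phosphoprotein of matrix and bone. It was measured at 92.6, 55.1, 47.3 and 47.4 CPM in day 0 replicates 1 to 4 and at 745, 523, 494 and 371 CPM at day 7. It reached 3778, 2260, 1275 and 1284 CPM at day 14, and 3906, 1288 and 3350 CPM in the 3 libraries of day 21. No library of a later day overlapped day 0, and the 4 libraries of day 14 all lay above those of day 7, while days 14 and 21 overlapped. Against day 0 the log2 fold changes of days 7, 14 and 21 were 3.14 ± 0.42 (SE), 5.15 ± 0.46 and 5.55 ± 0.47, with edgeR adjusted p-values of 0.000148, 2.33e-06 and 3.13e-06. Spp1 alone took 0.00476% to 0.00914% of all counts at day 0 and up to 0.396% at day 21. A gene of unknown status, Gm42793, overlaps an exon of Spp1 on the same strand and held at most 76 counts in any library.

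Osteopontin binds CD44 and integrins that hold the αv, α4, α5, α8 or α9 chain. Of 9 such receptor genes tested, 4 rose and 1 fell at day 14, and their median log2 fold change was 0.49. The chains of the αv integrins were among those that rose: Itgav rose by 1.12 ± 0.18 (log2, SE), Itgb3 by 1.32 ± 0.29 and Itgb5 by 0.61 ± 0.15, with edgeR adjusted p-values of 0.000293, 0.0025 and 0.00514. The call on Itgb5 was lost without day 0 replicate 2 or 3 or day 14 replicate 1, with log2 fold changes of 0.57, 0.54 and 0.39. Itga5, which pairs with Itgb1 as the fibronectin receptor, rose 2.82-fold (edgeR adjusted p = 0.00112). Itga8, a chain of fibroblasts and smooth muscle, fell by 1.49 on the log2 scale (SE 0.26, edgeR adjusted p = 0.0005). Cd44 did not pass on fold change, with a log2 difference of 0.49 ± 0.17 at day 14. At day 7 only Itgav of the receptors passed, with a log2 fold change of 0.98 ± 0.18 (edgeR adjusted p = 0.00165).

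Trem2 (ENSMUSG00000023992, chr17:48346401-48354147, plus strand) encodes a lipid-sensing receptor of macrophages and microglia. It was barely present at day 0, at 3.75, 2.60, 5.52 and 5.52 CPM in replicates 1 to 4, which were 58, 43, 87 and 99 reads. It stood at 44.6, 36.6, 31.2 and 22.7 CPM at day 7, at 114, 103, 62.1 and 78.6 CPM at day 14, and at 93.5, 55.8 and 93.6 CPM at day 21. The lowest day 7 library was above the highest of day 0, and the lowest of day 14 was above the highest of day 7. The log2 fold changes against day 0 were 2.95 ± 0.29, 4.35 ± 0.30 and 4.21 ± 0.30 at days 7, 14 and 21, and the edgeR adjusted p-values were 2.14e-05, 3.61e-07 and 9.43e-07. These were the smallest adjusted p-values among the 8 genes at each of the 3 days.

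TREM2 signals through the adaptor DAP12, encoded by Tyrobp, and is shed from the cell surface by the proteases ADAM10 and ADAM17. Of 8 genes of this pathway, Tyrobp and Adam10 passed at day 14 and none fell, with a median log2 fold change of 0.47. Tyrobp was at 42.7 to 63.4 CPM at day 0, 59.4 to 79.3 CPM at day 7, 99.5 to 142 CPM at day 14 and 68.5 to 122 CPM at day 21. Its log2 fold change was 0.22 ± 0.18 at day 7, which did not pass, 1.05 ± 0.18 at day 14 and 0.73 ± 0.19 at day 21 (edgeR adjusted p-values of 0.383, 0.000409 and 0.00839). The day 21 call on Tyrobp was lost without day 0 replicate 4 (0.58) and without day 21 replicate 3 (0.46, edgeR adjusted p = 0.0905). Adam10 rose at day 14 by 0.61 ± 0.13 on the log2 scale (edgeR adjusted p = 0.00229), a call lost when day 0 replicate 3 or 4, or day 14 replicate 1, was left out (log2 fold changes of 0.49, 0.57 and 0.53). The ratio of Trem2 to Tyrobp within a library exceeded its day 0 mean by 2.76, 3.34 and 3.54 log2 units on days 7, 14 and 21, and no library of a later day overlapped day 0. The exact two-sided permutation p was 0.0286, 0.0286 and 0.0571, the smallest that 4 against 4 and 4 against 3 libraries can give, and over the 60 ratios examined the Benjamini-Hochberg values were 0.0571, 0.0571 and 0.0686.

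Gpnmb (ENSMUSG00000029816, chr6:49036546-49070929, plus strand) encodes a transmembrane glycoprotein of melanosomes, lysosomes and the cell surface. Its level was 23.9, 18.7, 17.8 and 29.6 CPM at day 0 and 137, 86.0, 119 and 92.6 CPM at day 7. At day 14 it was 409, 311, 212 and 373 CPM, and at day 21 it was 337, 155 and 549 CPM. The groups of days 0, 7 and 14 did not overlap, and day 21 spread from just above day 7 to the highest value of the series. Against day 0 Gpnmb rose 4.83-fold, 14.5-fold and 15.4-fold on days 7, 14 and 21, with log2 fold changes of 2.27 ± 0.32, 3.86 ± 0.34 and 3.94 ± 0.35 (edgeR adjusted p-values of 0.000249, 2.33e-06 and 4.25e-06).

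Gpnmb and many lysosomal genes are known targets of the MiT/TFE transcription factors. Of 12 such factors and lysosomal genes, 5 rose at day 7 (3 without day 7 replicate 1), 7 at day 14 and 6 at day 21, and none fell at any of these days. The median log2 fold change was 0.39, 0.62 and 0.56. Tfec, the family member largely restricted to macrophages and osteoclasts, rose at day 14 by 1.85 ± 0.23 on the log2 scale, and Psap, the precursor of the saposins, by 1.40 ± 0.16 (edgeR adjusted p-values of 3.4e-05 and 1.79e-05). Atp6v0d2, a subunit of the proton pump of lysosomes, Mitf and Npc2 also rose at day 14, by 1.39, 0.63 and 0.61 on the log2 scale. The call on Mitf was lost without day 0 replicate 4 or day 14 replicate 1 (0.56 and 0.48), and that on Npc2 without any of 5 libraries, day 0 replicates 1, 2 and 4 and day 14 replicates 2 and 4 (0.47 to 0.59).

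Apoe (ENSMUSG00000002985, chr7:19696109-19699188, minus strand), which encodes the main lipoprotein by which macrophages export cholesterol, was abundant before injury. It stood at 759, 730, 895 and 653 CPM at day 0, and at 1614, 1057, 1447 and 1026 CPM at day 7. At day 14 it was at 5095, 2927, 1643 and 2169 CPM, and at day 21 at 3581, 2041 and 3136 CPM. All libraries of the later days were above day 0. Day 14 replicate 1 was the highest of the series. The log2 fold change at day 7 was 0.76 ± 0.29 and did not pass (edgeR adjusted p = 0.0671), while DESeq2 called it, with a log2 fold change of 0.74 and an adjusted p of 0.0396. Apoe rose on days 14 and 21 by log2 changes of 1.96 ± 0.30 and 1.94 ± 0.31 (edgeR adjusted p-values of 0.000185 and 0.000346).

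Of 11 receptors, exporters and regulators of apolipoprotein E and cholesterol tested, 3 rose and 2 fell at day 14, and the median log2 fold change was 0.38. Lrp8, the apolipoprotein E receptor 2, rose by 1.94 ± 0.40 on the log2 scale, Scarb1, the HDL receptor, by 0.72 ± 0.16, and Lrp1, a large endocytic receptor, by 0.69 ± 0.20 (edgeR adjusted p-values of 0.00185, 0.00269 and 0.0159). Pltp, the phospholipid transfer protein, fell by 1.16 on the log2 scale (SE 0.17, edgeR adjusted p = 0.000124), and Vldlr fell by 0.61. Without day 14 replicate 1 the value of Lrp1 was 0.35 and did not pass, and without day 0 replicate 1 or day 14 replicate 3 or 4 that of Vldlr was -0.58, -0.56 or -0.57 and missed the fold threshold. Abca1, the cholesterol exporter that loads apolipoprotein E, did not pass at day 14, with a log2 difference of 0.43 ± 0.16, and passed at day 21 at 0.87 ± 0.17 (edgeR adjusted p = 0.00136).

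Fabp5 (ENSMUSG00000027533, chr3:10012548-10016607, plus strand), a carrier of fatty acids in the cytoplasm of epithelial cells and macrophages, behaved less evenly. It was measured at 56.2, 49.2, 97.1 and 98.9 CPM at day 0 and at 102, 52.2, 98.3 and 81.2 CPM at day 7. The values were 93.6, 150, 128 and 126 CPM at day 14 and 63.1, 56.9 and 98.0 CPM at day 21. The 4 groups overlapped, although 3 of the 4 day 14 libraries were above every day 0 library. At day 14 the log2 fold change was 0.72 ± 0.26 (edgeR adjusted p = 0.0424), whereas at days 7 and 21 it was 0.15 ± 0.26 and -0.05 ± 0.28, and neither passed. The day 14 call was lost without any of 5 libraries, day 0 replicates 1 and 2 and day 14 replicates 2, 3 and 4, with log2 fold changes of 0.54 to 0.72 and edgeR adjusted p-values of 0.0686 to 0.138. The 2 low libraries of day 0 also had a lower share of counts from mitochondrial genes, 2.28% and 2.31%, than the 2 high ones, 4.22% and 4.05%. Among the libraries with a share over 3.5%, 3 of day 14 and 2 of day 0, the log2 difference was 0.45 (edgeR adjusted p = 0.0643). Among those with a share under 2.5%, 4 of day 7 and 2 of day 0, it was 0.65 (edgeR adjusted p = 0.0874).

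Among 6 other fatty acid-binding proteins and PPAR receptors, 1 rose (2 without day 0 replicate 3) and 1 fell at day 14. Fabp1, the liver form, fell from 6.48 to 10.3 CPM at day 0 to 0, 0.446, 0.172 and 0.181 CPM at day 14 (edgeR adjusted p = 0.000169), levels of a few reads on which no exact fold change can rest. Fabp7 passed as higher but had at most 1 read in any day 0 library and 0 to 2.07 CPM at day 14, too few for a fold change to be given.

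Cd63 and Cd9 encode tetraspanins, small membrane proteins that organise other receptors, Cd63 mainly in late endosomes and lysosomes and Cd9 mainly at the cell surface. Cd63 (ENSMUSG00000025351, chr10:128900989-128912822, plus strand) was held within 166 to 183 CPM in the 4 day 0 libraries. It rose to 410, 401, 288 and 302 CPM at day 7, to 620, 657, 358 and 393 CPM at day 14 and to 508, 333 and 506 CPM at day 21. No later library overlapped day 0, and the later days overlapped one another. The log2 fold changes were 1.01 ± 0.20, 1.54 ± 0.20 and 1.36 ± 0.21 at days 7, 14 and 21 (edgeR adjusted p-values of 0.00271, 5.61e-05 and 0.000276). The processed copy Cd63-ps is nearly identical in sequence and held 153 to 599 counts per library, beside 2642 to 10485 for Cd63. Reads of each could belong to the other, and how many was not tested.

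Cd9 (ENSMUSG00000030342, chr6:125460266-125494791, minus strand) was at 253 to 316 CPM at day 0 and 258 to 297 CPM at day 7. It was at 289, 482, 310 and 316 CPM at day 14 and at 346, 277 and 320 CPM at day 21. The days overlapped, and a single library, day 14 replicate 2, stood apart. The log2 differences from day 0 were -0.10 ± 0.15, 0.25 ± 0.15 and 0.10 ± 0.16 (edgeR adjusted p-values of 0.644, 0.206 and 0.675). Cd9 differed in this from Cd63, which passed at all 3 days, but the difference between the tetraspanins was not tested.

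Of 12 other tetraspanins and their partners, 1 rose and 1 fell at each of the 3 days. Of all genes tested, 8.78% to 12.4% rose and 7.36% to 11.2% fell on those days. At day 14, 2 of the 12 rose without day 0 replicate 1 or 2, and at day 21, 2 of the 12 fell without day 0 replicate 3 or day 21 replicate 2. The gene that rose at day 14 was Timp1, a secreted inhibitor of metalloproteinases for which CD63 is a receptor, from 4.57 to 7.44 CPM at day 0 to 55.8 to 261 CPM at day 14. On days 7, 14 and 21 its log2 fold changes were 4.26 ± 0.49, 4.36 ± 0.49 and 4.80 ± 0.51 (edgeR adjusted p-values of 5.04e-05, 1.31e-05 and 1.24e-05). Tspan7 fell by 1.14 on the log2 scale at day 14 (SE 0.17, edgeR adjusted p = 0.000159).

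Mfge8 (ENSMUSG00000030605, chr7:79133768-79149060, minus strand) encodes a secreted bridging protein that binds phosphatidylserine on dying cells and the αv integrins of phagocytes. It was at 302, 264, 256 and 239 CPM at day 0 and at 327, 271, 328 and 334 CPM at day 7. It was at 628, 513, 330 and 414 CPM at day 14 and at 478, 394 and 749 CPM at day 21. The day 7 libraries overlapped day 0, and those of days 14 and 21 did not. Mfge8 did not pass at day 7, with a log2 difference of 0.25 ± 0.20 (edgeR adjusted p = 0.39), and rose by 0.83 ± 0.20 at day 14 and 1.02 ± 0.21 at day 21 (edgeR adjusted p-values of 0.00559 and 0.00233).

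Of 9 other genes of the uptake of dying cells, 2 rose and 2 fell at day 14, with a median log2 fold change of 0.03. Axl, a receptor that also bridges to phosphatidylserine, rose by 0.87 ± 0.15 on the log2 scale (edgeR adjusted p = 0.000445), and Stab1 rose by 0.80. Timd4, a phosphatidylserine receptor of resident macrophages, fell from 0.952 to 2.48 CPM at day 0 to 0 to 0.591 CPM at day 14 (edgeR adjusted p = 0.00867), again levels too low for an exact fold change. Elmo1, part of the engulfment machinery, fell by 0.82 on the log2 scale (SE 0.14, edgeR adjusted p = 0.000529).

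**Figure D2:**
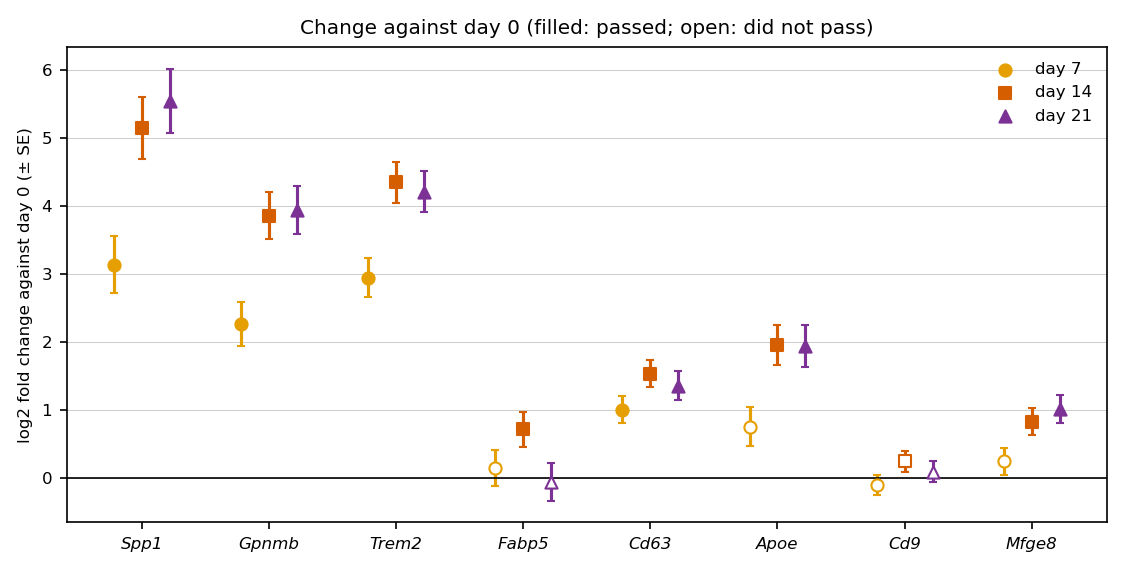
The vertical axis is the edgeR log2 fold change against day 0 and the bars are standard errors. Circles, squares and triangles stand for days 7, 14 and 21, filled where the gene passed the test. Spp1, Gpnmb and Trem2 reached 3.86 to 5.15 at day 14, Apoe and Cd63 1.54 to 1.96, Fabp5 and Mfge8 0.72 to 0.83, and Cd9 0.25.

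The order of the genes by level, corrected for exon length as transcripts per 1000000 (TPM), changed after bleomycin. The length joined all annotated exons of a gene, 1648 bases for Spp1 and 3567 for Fabp5. The order and the overlaps below depend on this choice. In CPM, without a length, Fabp5 averaged 75.4 and Spp1 60.6 at day 0, with overlapping libraries. At day 0 the highest was Apoe at 893 ± 40 TPM (SD, n = 4), followed by Cd9 at 362 ± 17.1, Mfge8 at 143 ± 14.4, Cd63 at 120 ± 8.29, Spp1 at 92.8 ± 31.1, Fabp5 at 53.6 ± 19.8, Gpnmb at 8.87 ± 2.83 and Trem2 at 2.23 ± 0.766. Mfge8 and Cd63, Cd63 and Spp1, and Spp1 and Fabp5 overlapped in TPM between libraries at that time, while the other neighbours did not. At day 21 Spp1 was the highest at 5061 ± 2390 TPM (SD, n = 3), overlapping Apoe at 4005 ± 1027. Cd9 at 452 ± 43.1, Cd63 at 358 ± 79.1, Mfge8 at 340 ± 126 and Gpnmb at 157 ± 93.2 TPM followed, each overlapping the next. Fabp5 at 60.2 ± 20.1 and Trem2 at 48.1 ± 12.8 TPM were the lowest and overlapped. In all, the 8 genes took 0.151% to 0.182% of the counts at day 0 and 0.437% to 1.08% at day 14.

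Between day 7 and day 14, Spp1, Gpnmb, Trem2 and Apoe rose further, 4 of the 8 genes against 2.77% of all genes tested. Their log2 fold changes were 2.01 ± 0.40, 1.59 ± 0.31, 1.40 ± 0.25 and 1.20 ± 0.29 (edgeR adjusted p-values of 0.0126, 0.0121, 0.00814 and 0.026), and for these 4 every day 14 library lay above every day 7 library, where 7.90% of all genes did so. Between day 7 and day 21 the same 4 genes and Mfge8 rose, 5 of the 8 genes against 5.20% of all genes, with every day 21 library above every day 7 library in these 5, as in 14.6% of all genes, and the log2 fold change of Mfge8 was 0.78 ± 0.21 (edgeR adjusted p = 0.0292). This count was 3 without day 7 replicate 2 or 4 or day 21 replicate 1 or 3, where neither Apoe nor Mfge8 passed. Mfge8 also lost its call without day 7 replicate 1 or 3 and with the replicate number as a block (0.75, edgeR adjusted p = 0.051), and without day 21 replicate 3 its log2 difference was 0.44. The Apoe call between days 7 and 14 was lost without day 7 replicate 2, 3 or 4 or day 14 replicate 2 (log2 fold changes of 1.11 to 1.26, edgeR adjusted p-values of 0.0546 to 0.0803). Against the stricter null of a change of at most 1.5-fold (glmTreat), none of the 8 passed between days 7 and 14 and Spp1 alone passed between days 7 and 21. Cd63, which had risen by day 7, did not pass between days 7 and 14, with a log2 difference of 0.53 ± 0.20 (edgeR adjusted p = 0.112).

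Between day 14 and day 21 none of the 8 genes passed, and edgeR called 0 of the 17457 genes tested. With no filter it called 37 genes, and with 1 library left out up to 127, without day 14 replicate 1. None of the 8 was among them. Of the 17457 genes, 1714 had an unadjusted p under 0.05, and DESeq2 called 106 genes, none of them among the 8. In none of the 8 did every day 21 library lie above every day 14 library, as in 3.05% of all genes. The log2 differences were 0.41 ± 0.41 for Spp1, 0.09 ± 0.33 for Gpnmb, -0.14 ± 0.27 for Trem2, -0.02 ± 0.31 for Apoe and 0.20 ± 0.22 for Mfge8. Fabp5 had the largest difference, at -0.78 ± 0.28 (edgeR adjusted p = 0.399), and 2 of its 3 day 21 libraries were below every day 14 library.

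Some libraries were high or low in most of the 8 genes. Day 14 replicate 1 was the highest of its day in Spp1, Gpnmb, Trem2, Apoe and Mfge8 and the lowest in Fabp5 and Cd9, and it had a mitochondrial share of 2.1%, against 3.74% to 4.14% in the other day 14 libraries. Day 14 replicate 3 was the lowest in 6 of the 8 genes and day 21 replicate 2 in all 8. Day 7 replicate 1 was the highest in 7. Total counts did not separate these libraries, lying between 15652008 and 18020661 in the whole series. With the comparison kept within libraries of similar mitochondrial share, the log2 fold changes of Spp1, Gpnmb and Trem2 were 2.84, 2.33 and 3.40 at day 7 (4 libraries against 2) and 5.08, 3.65 and 3.87 at day 14 (3 against 2), with edgeR adjusted p-values of 0.000245 to 0.00106.

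Across the 15 libraries the levels of Spp1, Gpnmb and Trem2 on the log2 CPM scale followed one another closely, with a Pearson r of 0.974 for Spp1 and Gpnmb, 0.971 for Spp1 and Trem2 and 0.972 for Gpnmb and Trem2. These values are descriptions over libraries that share their day of sampling. After each day's mean was taken off, r was 0.647, 0.58 and 0.613. Spp1 and Apoe kept an r of 0.822 within days and Spp1 and Cd63 one of 0.793. Fabp5 and Cd9 reached at most 0.476 with any other gene of the group over the 15 libraries.

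Among 11817 other genes with a mean of at least 5 CPM, those whose log2 CPM followed Spp1 most closely were Cd84, Slc37a2 and Ctss, with an r of 0.987, 0.985 and 0.98 over the 15 libraries. Cd84 is a leukocyte surface receptor, Slc37a2 a sugar phosphate transporter of macrophages and Ctss the lysosomal protease cathepsin S. Gpnmb was closest to Ctss, Lhfpl2 and Cd84 (0.985, 0.981 and 0.981), and Trem2 to Cd68, a lysosomal protein of macrophages, Ppic and Ccn4 (0.984, 0.976 and 0.975). Apoe was closest to the lysosomal mannosidase Man2b1 (0.984), then Rnf149 and Slc37a2 (0.971 and 0.964). Mfge8 was closest to Grem1, a BMP antagonist of fibroblasts, Havcr2 and Ctsl (0.92, 0.917 and 0.914). Cd63 was closest to its copy Cd63-ps, Memo1 and Cmpk1 (0.981, 0.981 and 0.98). The genes most like Fabp5 were Hyls1, Bfar and Lsm7 (0.886, 0.871 and 0.866) and those most like Cd9 were Msrb1, Rnf7 and Atp6v1f (0.888, 0.883 and 0.88).

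A wider list of 20 lysosomal, lipid-handling and matrix-degrading genes that macrophages of scars express was set beside the 8. Of these, 12 rose at day 7, 17 at day 14 and 15 at day 21, and 1 fell, at day 14 (2 without day 0 replicate 4, and 1 at day 21 without day 21 replicate 2). The median log2 fold change was 0.72, 1.31 and 1.47. Mmp12, macrophage elastase, rose from 4.11 to 4.85 CPM at day 0 to 144 to 501 CPM at day 14. The log2 fold changes at day 14 were 6.43 ± 0.56 for Mmp12 and 3.18 ± 0.21 for Igf1, a growth factor of repair macrophages (edgeR adjusted p-values of 2.17e-06 and 2.61e-07). The osteoclast protease Ctsk rose by 3.08 ± 0.35, Mmp14 by 2.68 ± 0.28 and Lgals3, which encodes galectin-3, by 1.46 ± 0.22 on the log2 scale. Cd36, a fatty acid and scavenger receptor that endothelial cells of the lung also express, fell by 0.80 on the log2 scale at day 14 (SE 0.15, edgeR adjusted p = 0.000804), and Fabp4 and Cst7 did not pass.

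**Figure D3:**
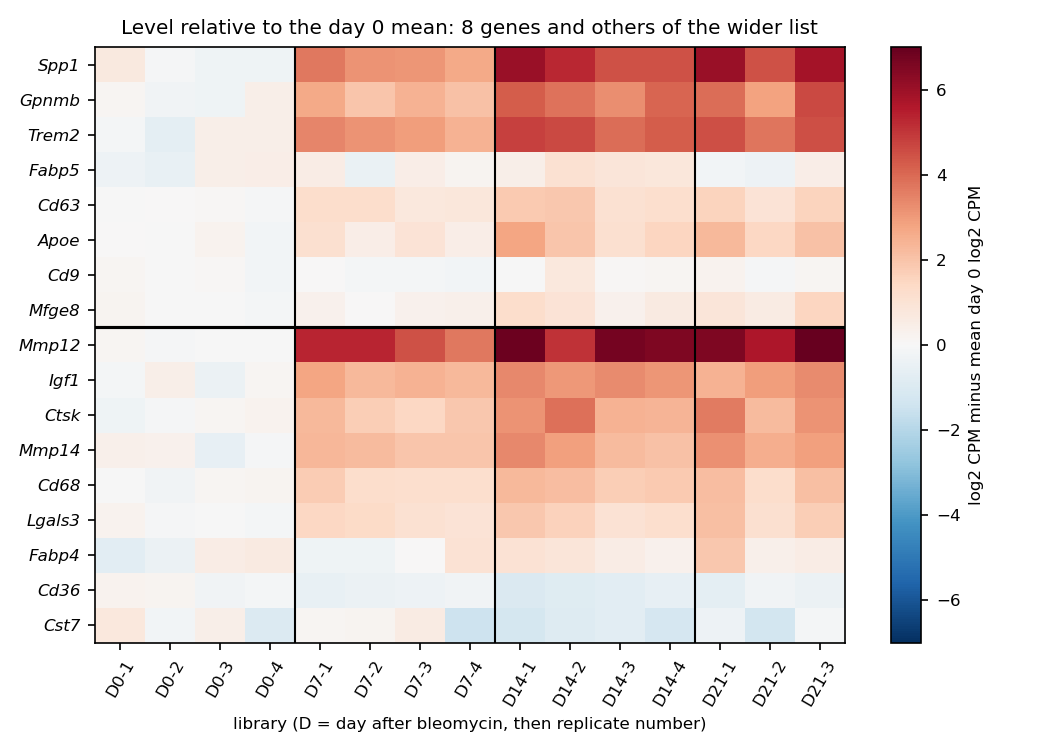
Each cell is the log2 CPM of a gene in a library minus the mean log2 CPM of the gene over the day 0 libraries, with the 8 genes above the line and genes of the wider list that are named in the text below it. Columns are libraries by day and replicate, red is higher and blue lower, and values above 7 have the colour of 7. Spp1, Gpnmb, Trem2, Mmp12 and Igf1 were red in every library of days 7 to 21. In the libraries of those days Cd9 stayed within 0.18 below and 0.72 above its day 0 mean.

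Marker genes of cell types also changed in these libraries. Of 7 general macrophage markers 4 rose at day 14: Cd68 by 2.00 ± 0.20 (log2, SE), Fcgr1 by 2.13 ± 0.21, Adgre1 by 1.36 ± 0.26 and Csf1r by 0.63 ± 0.17. The call on Csf1r was lost without day 0 replicate 3 or 4 (0.58 and 0.54) or day 14 replicate 1 (0.39). Lyz2, Mertk and Cd14 did not pass. The summed level of the 7 was 6882 to 8066 CPM at day 0 and 4832 to 9305 CPM at day 14, most of it Lyz2, at 6507 to 7735 and 3920 to 8708 CPM, and none was at 0 in any library. Of 8 markers of interstitial macrophages 4 rose at day 14, C1qa, C1qb, C1qc and Ms4a7, by 2.81, 3.18, 2.87 and 2.92 on the log2 scale, and their list summed to 608 to 922 CPM at day 0 and 886 to 2130 CPM at day 14, of which Lyve1, which lymphatic endothelium also expresses, made up 469 to 747 and 328 to 728 CPM. Of 7 markers of alveolar macrophages, Krt79 fell by 4.49 on the log2 scale and Marco, a scavenger receptor, passed as higher. Marco was at 19.0 to 29.7 CPM at day 0 and at 49.0, 434, 37.9 and 21.1 CPM at day 14, and without day 14 replicate 2 its log2 difference was 0.50 (edgeR adjusted p = 0.429). Its call was also lost without day 0 replicate 1, 2 or 3, with log2 values of 2.30 to 2.45. With 1 library left out, 0 to 2 alveolar macrophage markers rose, a count that also moved without day 14 replicate 3 or 4. The list summed to 754 to 1086 CPM at day 0 and 926 to 3441 CPM at day 14, of which Chil3 made up 558 to 869 and 776 to 2850 CPM. Of 5 tested osteoclast markers 4 rose, among them Acp5 by 2.29 on the log2 scale, and Mmp9 fell by 1.28. Ocstamp went from 0 to 0.363 CPM at day 0 to 1.98 to 2.72 CPM at day 14, and Dcstamp from 0.194 to 0.837 CPM to 1.66 to 9.61 CPM, with day 0 levels too low for an exact fold change. The osteoclast list summed to 46.0 to 108 CPM at day 0, of which Mmp9 made up 29.5 to 93.2 CPM, and 103 to 115 CPM at day 14, with Ocstamp and Oscar at 0 in some libraries.

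Ratios within a library to a macrophage gene were taken for 5 of the 8 genes, Spp1, Trem2, Gpnmb, Apoe and Cd63. On the log2 scale the ratio of Spp1 to Cd68 was higher at day 14 than at day 0 by 3.06, that of Trem2 by 2.39 and that of Gpnmb by 1.85, with no overlap between the libraries of the 2 days. The ratio of Apoe to Cd68 differed by -0.16 and that of Cd63 by -0.51. The exact two-sided permutation p was 0.0286 for each of the first 3, 0.629 for Apoe and 0.0571 for Cd63, and over the 60 ratios the Benjamini-Hochberg values were 0.0571 for each of the first 3, 0.662 for Apoe and 0.0686 for Cd63. The ratios of Apoe and Cd63 depended on the gene they were set against. Over Csf1r the differences were 1.24 for Apoe and 0.89 for Cd63 (exact two-sided permutation p = 0.0286 for each), over Tyrobp they were 0.79 (exact permutation p = 0.0286) and 0.44 (exact permutation p = 0.0857), and over Adgre1 they were 0.52 (exact permutation p = 0.114) and 0.17 (exact permutation p = 0.571), with Benjamini-Hochberg values of 0.0571 or more. Those of Spp1, Trem2 and Gpnmb were positive over all 4 genes, from 1.85 to 4.45.

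Markers of cells other than macrophages moved as well. Of 6 fibroblast markers 4 rose at day 14, the list summing to 1311 to 1989 CPM at day 0 and 3588 to 13132 CPM at day 14. Of 4 markers of transitional epithelium 3 rose, and the sums of all 4 overlapped, at 337 to 446 CPM at day 0 and 438 to 937 CPM at day 14. Of 7 alveolar type 2 markers 4 fell, a count that was as low as 2 without day 0 replicate 3 or day 14 replicate 1, and all 7 summed to 25968 to 35984 CPM at day 0 and 6797 to 19811 CPM at day 14. No marker of these 3 lists was at 0 in any library. The part of these cells in the values of the 8 genes was not tested.

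**Figure D4:**
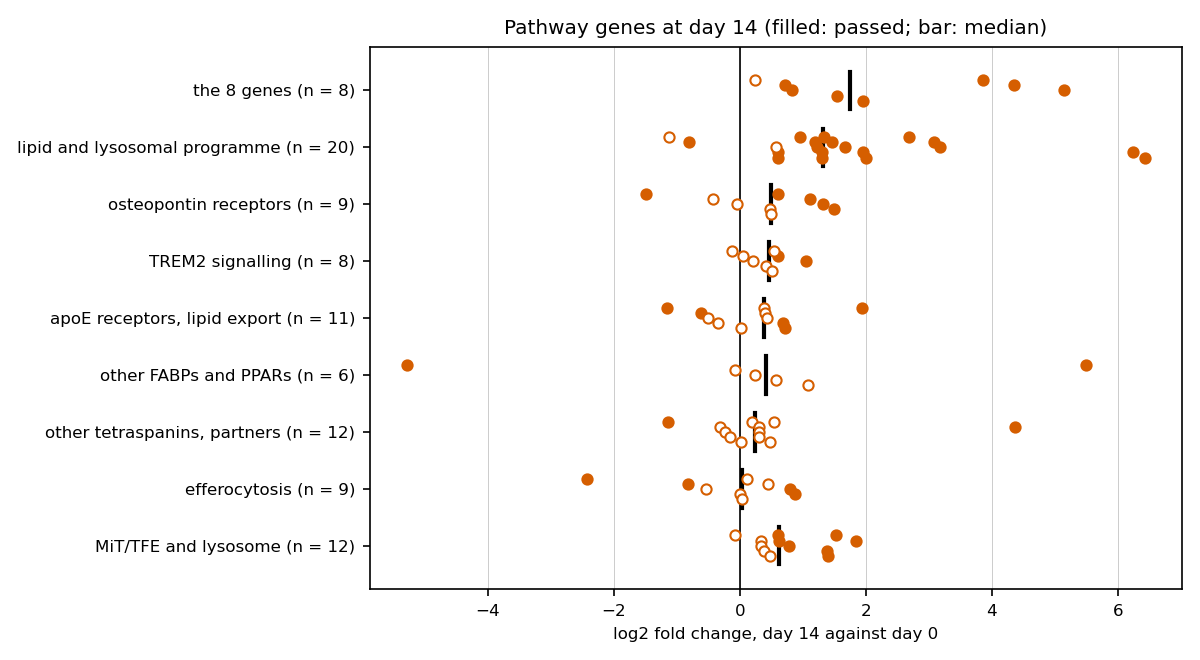
Each point is a gene, placed by its edgeR log2 fold change at day 14 against day 0 on the horizontal axis, in rows by list, and filled where it passed the test. Bars are list medians: 1.75 for the 8 genes, 1.31 for the wider list, 0.62 for the MiT/TFE and lysosomal genes and 0.03 for the genes of the uptake of dying cells.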

How the data were processed

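Bulk RNA-seq of whole lung was deposited as raw counts of reads per Ensembl gene. The authors trimmed the reads with TrimGalore 0.6.10, aligned them to mm10 with HISAT2 2.1.0 and counted them with HTSeq 0.6.0, with no normalization. The annotation release and the strand setting are not given in the sources used here, so reads of overlapping genes cannot be told apart. Symbols and exon lengths came from GENCODE M21 of the same build, which matched 33267 of 33340 identifiers, and 0.00889% of counts lay on the others. Total counts were 15652008 to 18020661 per library. Groups and replicate numbers were read from the titles, which give 4 replicates each for days 0, 7 and 14, more than the 3 of the series description.

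The counts were tested with edgeR 4.0.16 in R 4.3.3: filterByExpr, TMM, and a quasi-likelihood fit of day over all 15 libraries, with a biological coefficient of variation of 22.8%. P-values were adjusted over 17457 genes, and a gene passed with an adjusted p below 0.05 and more than a 1.5-fold change. CPM used TMM-adjusted library sizes. Standard errors are the log2 fold change divided by the square root of F. Correlations used log2 CPM with a prior count of 2. The fits were tested on simulated data. No 2 libraries were alike enough to be a repeat deposit.

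The 8 genes, the lists and the motifs were chosen with earlier results of these data known. Named besides the 8 were the 3 genes of each pathway list with the largest change at day 14 among those that passed, the direct partners Tyrobp, Cd44, Itgav, Itgb3, Itgb5, Timp1, Lrp1 and Abca1, markers of cell types that passed, and the 3 genes most correlated with each of the 8. Other list genes (Marco, Oscar, Vldlr, Stab1, Cd36, Ctsk, Mmp14, Lgals3, Fabp4, Cst7, Atp6v0d2, Mitf and Npc2, and the markers that did not pass) were named after their values were seen. Some genes that this rule names are not reported here, but stay in the counts and medians of their lists. Alternatives were DESeq2 1.42.0, limma 3.58.1 voom, RLE factors, library totals, other filters, the compared groups alone, a replicate block, a mitochondrial share covariate, no fold threshold, glmTreat, and each library left out. Fits within libraries of like mitochondrial share (under 2.5% or over 3.5%) were added after the data were seen. Lists of markers for further cell types are described with the closing observations.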

Additional observations from a re-analysis of the deposited data

Results flagged for a closer look

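Of 24 groups of 4 libraries examined for a library far from the rest, 2 held one. Chance alone would give such a library in about 5% of groups. Cd9 was at 482.3 CPM in day 14 replicate 2, with the other 3 day 14 libraries at 289.2 to 315.5 CPM. Mfge8 was at 270.5 CPM in day 7 replicate 2, with the other 3 at 327.4 to 334 CPM.

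The effect of bleomycin on some genes differed between days when the days were compared directly with edgeR. Day 14 stood above day 7 on the log2 scale by 2.01 for Spp1, 1.59 for Gpnmb, 1.40 for Trem2 and 1.20 for Apoe (edgeR adjusted p-values of 0.0126, 0.0121, 0.00814 and 0.026). Day 21 stood above day 7 by 2.42 for Spp1, 1.67 for Gpnmb, 1.26 for Trem2, 1.18 for Apoe and 0.78 for Mfge8 (edgeR adjusted p-values of 0.00356, 0.00623, 0.00938, 0.0241 and 0.0292). The call on Mfge8 was lost in 8 of 18 alternatives, among them without day 21 replicate 3 (0.44, edgeR adjusted p = 0.166), and that on Apoe between days 21 and 7 in 5 of 18. The 2 comparisons share the day 7 libraries.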

How the results depend on the processing

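Spp1, Gpnmb and Trem2 kept their direction and passed against day 0 at all 3 days under every alternative run, with log2 fold changes at day 14 of 4.71 to 5.40, 3.65 to 4.02 and 3.87 to 4.49. Cd63 passed under every alternative but glmTreat at day 7 (adjusted p = 0.11), and Mfge8 under every alternative but glmTreat at days 14 and 21 (0.235 and 0.0683). Apoe at day 7 passed in 6 of 20 alternatives, among them the 2 groups alone (adjusted p = 0.00733). Of 904 fold changes recomputed for the 8 genes, 843 kept their direction and call, 33 lost the call, 8 gained it and 20 changed sign. Of 2035 such values for the other genes named, 128 lost the call, 18 gained it and none changed sign.

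The number of the 8 genes that passed was 0 between days 7 and 14 and 1 between days 7 and 21 under glmTreat, which tests for more than a 1.5-fold change. With 1 library left out, between 3 and 5 passed between days 7 and 21, and 3 remained without day 7 replicate 2 or 4 or day 21 replicate 1 or 3. Apoe then lost its call between days 14 and 7 without day 7 replicate 2, 3 or 4 or day 14 replicate 2 (adjusted p-values of 0.0546 to 0.0803), and between days 21 and 7 without day 7 replicate 2 or 4 or day 21 replicate 1 or 3 (0.0541 to 0.099). Mfge8 lost its call between days 21 and 7 in 8 of 18 alternatives. All sign changes were in differences that did not pass. Fabp5 lay between -0.04 and 0.32 at day 7 and between -0.37 and 0.07 at day 21 with 1 library left out, being 0.00 and -0.04 at day 7 without day 0 replicates 1 and 2, and 0.06, 0.07, 0.01 and 0.06 at day 21 without day 0 replicate 3, day 0 replicate 4, day 21 replicate 1 and day 21 replicate 2. Cd9 at day 21 lay between -0.01 and 0.14 and was -0.01 without day 21 replicate 1, and Mfge8 on day 7 was -0.05 with mitochondrial share in the model. Between days 21 and 14, Gpnmb was -0.05 with voom, -0.07 without day 14 replicate 3 and -0.43 without day 21 replicate 3. With 1 library left out the ranges were -0.43 to 0.42 for Gpnmb, -0.28 to 0.05 for Trem2 (0.05 without day 21 replicate 2), -0.24 to 0.03 for Cd9 (0.03 without day 14 replicate 2), -0.13 to 0.36 for Mfge8 (-0.13 without day 21 replicate 3) and -0.22 to 0.37 for Apoe. Apoe was 0.01 with library totals, 0.04 with mitochondrial share in the model, 0.07 with voom, 0.37 without day 14 replicate 1 and 0.16 without day 21 replicate 2. The causes were not tested. Between days 21 and 14 edgeR called no gene, or 127 without day 14 replicate 1, and DESeq2 called 106, in no case any of the 8.

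The deviations of same-numbered libraries of different days correlated at r of -0.244 to 0.397 (median 0.0406, 38.1% of 21 pairs over 0.1), beside -0.326 to 0.258 for libraries of different numbers (median -0.032, 20.6% of 63 pairs over 0.1). The numbers were not taken as pairs because not every pair was over 0.1. This rule is strict, and whether same-numbered libraries belong together was not tested. With the replicate block, 5, 7 and 6 of the 8 genes passed at days 7, 14 and 21, 4 between days 7 and 14, 4 between days 7 and 21 and 0 between days 14 and 21, and Fabp5 at day 21 was 0.01. Of 3016 recomputed list counts against day 0, pathway and cell type lists together, 312 moved by over 1.5 times, 43 of them under glmTreat.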

Other observations

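Marker lists of further cell types were read at day 14 in the same fits, with sums given over each whole list and the range of the count with 1 library left out. Of 5 monocyte markers none passed (up to 1 fell, without day 14 replicate 2), and the list summed to 101 to 240 CPM at day 0 and 163 to 318 CPM at day 14. Of 6 neutrophil markers 2 fell (2 to 4, the 4 without day 14 replicate 3), with list sums of 403 to 921 and 138 to 466 CPM. All 4 B cell markers fell (2 to 4, moved by over 1.5 times without day 0 replicate 1 or 3 or day 14 replicate 1 or 2), with list sums of 75.3 to 136 and 14.4 to 60.9 CPM. Of 6 T cell markers 1 fell (0 to 2, moved without day 0 replicate 3 or 4 or day 14 replicate 3), and of 6 dendritic cell markers 1 fell.

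Of 6 endothelial markers 2 fell (1 to 4, moved without day 14 replicate 1, 2 or 3), with list sums of 2644 to 3075 CPM at day 0 and 1428 to 2525 CPM at day 14. Of 5 smooth muscle markers 1 rose (1 to 2, moved without day 14 replicate 4). Of 4 pericyte markers 1 rose (1 to 2, moved without day 14 replicate 4) and 1 fell, a count of 0 to 2 that moved without any of 6 libraries, day 0 replicates 1, 2 and 3 and day 14 replicates 1, 3 and 4. Of 3 basal cell markers tested none passed (up to 1 rose, without day 0 replicate 2). Of 5 adipocyte markers tested 4 fell, with list sums of 19.4 to 53.2 and 1.06 to 3.89 CPM. Of 5 heart muscle markers tested 2 fell, a count of 0 to 2 that moved without any of 7 libraries, day 0 replicates 2, 3 and 4 and the 4 day 14 libraries, and their list summed to 23.8 to 234 CPM at day 0. The part of these cells in the values of the 8 genes was not tested.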
